A study of Mus musculus with 36 samples.

Results

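The comparison set 6 libraries of mouse bone marrow-derived macrophages labelled NOS1 KO and treated with LPS for 8 h against 6 KO-labelled control libraries, which are 12 of the 36 RNA-seq libraries of the series. Members were taken by their labels alone: a genotype of NOS1 KO or BMDM NOS1 KO, with a treatment of either LPS at 8 h or control. The macrophages were grown from bone marrow for 5 days with 20 ng/mL of M-CSF, the growth factor that drives macrophage differentiation, and LPS (lipopolysaccharide, a cell wall component of gram-negative bacteria) was given at 100 ng/mL. The KO-labelled LPS 2 h libraries (6) and the WT-labelled LPS 8 h and control libraries (12) of the same series are used where stated, and the series writes the strain of its wild type as C65BL6. The title of the series concerns SOCS1 and NF-kB target genes and says nothing of NOS1. The labels give no time for the controls, and they name neither the deleted part of the gene, nor the animals, nor any batch, so the p-values rest on a spread among libraries that may be technical only.

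Nos1, the neuronal nitric oxide synthase named in the KO label (ENSMUSG00000029361, chromosome 5, 117781032 to 117958840), was counted in every KO-labelled library; gene positions here and below are on mm10. It had 10 to 22 reads in the LPS 8 h libraries and 30 to 83 in the KO-labelled controls. The WT-labelled libraries of the same treatments had 0 to 8 reads at 8 h and 0 to 3 in controls. These counts go against the label, and counts summed over a gene do not tell its exons apart, so the libraries are called KO-labelled and WT-labelled throughout. Within the KO-labelled libraries Nos1 fell with LPS, at 1.01 to 2.06 CPM (median 1.76) at 8 h against 2.46 to 5.07 CPM (median 4.47) in controls, with a log2 fold change at -1.35 ± 0.39 and an edgeR adjusted p of 0.00284. CPM are counts scaled to a common library size with edgeR (TMM). A value given as x ± y after a gene is its log2 fold change with an approximate standard error, unless it is called a mean. That error is the size of the log2 fold change divided by the square root of edgeR's F statistic. It can be too small where the controls had few counts.

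LPS binds Toll-like receptor 4 with CD14 and MD-2 on macrophages and signals through the adaptors MyD88 and TRIF. The MyD88 branch frees the transcription factor NF-kB from its inhibitors and turns on cytokine and chemokine genes, while the TRIF branch makes cells release interferon beta, which acts back through its receptor on interferon-stimulated genes. Hours later macrophages are known to make nitric oxide from arginine with the inducible enzyme NOS2, to change their metabolism and to leave the cell cycle.

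Totals ran from 11458351 to 14519420 counts in the KO-labelled LPS 8 h libraries and from 9474629 to 13847890 in the KO-labelled controls. In every group of the series, replicates 1, 2 and 6 (set A) stood apart from replicates 3, 4 and 5 (set B) on the first principal component. The labels do not name these sets, each holds 3 libraries of each group, and values within each set are given below where they differ. KO-labelled control replicate 2 stood nearest to set B among the set A libraries, at 14.8 on that component against 30.8 for control replicates 1 and 6. Its counts were closest to control replicate 6, but closer to control replicates 3, 4 and 5 than to control replicate 1. The macrophage markers added up to between 19000.0 and 21800.0 CPM at 8 h and to between 13910.0 and 17970.0 CPM in controls, and none of the 10 was below 1 CPM in either group.

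At 8 h of LPS most measured genes differed from the KO-labelled controls. Of 12957 genes tested with edgeR's quasi-likelihood test, 9342 (72.1%) had a Benjamini-Hochberg adjusted p below 0.05 and are called changed here. They divided into 4527 higher (34.9%) and 4815 lower genes (37.2%). A log2 fold change of at least 3 was reached by 752 higher and 402 lower genes, and one of at least 8 by 57 higher genes and 1 lower gene, so the large changes were mostly increases. In 3493 genes (27%) all 6 LPS libraries lay above all 6 controls, and in 3314 (25.6%) all 6 lay below. The balance of higher and lower calls rests on the scaling: with library totals alone the median log2 fold change of all genes moves from -0.06 to -0.88, and 19.5% of calls are higher in place of 48.5%. Fold changes below are relative to the TMM-scaled median, and a list whose median is under 0.8 can change sign with library totals alone. Counts of called list members below are to be read beside the shares of 34.9% higher and 37.2% lower over all tested genes. Several lists that moved both ways lay near these shares.

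**Figure D1:**
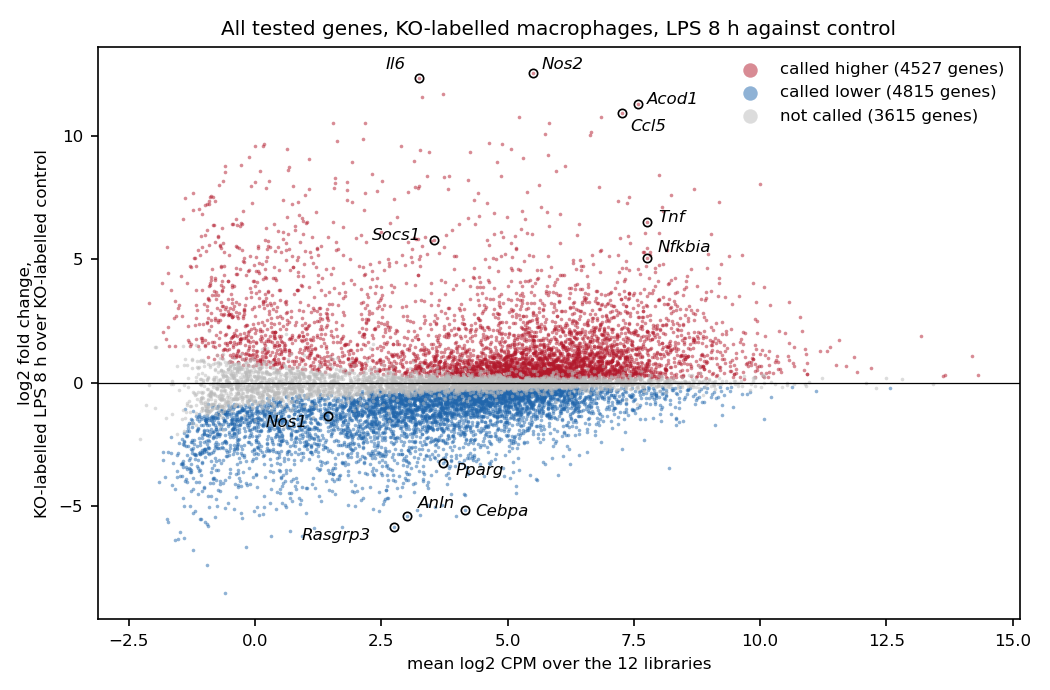
Each point is 1 of the tested genes, with the mean log2 CPM over the 12 KO-labelled libraries on the x axis and the log2 fold change of LPS 8 h over control on the y axis. Red points are the 4527 genes called higher, blue points the 4815 called lower, grey points the rest, and circles mark genes described in the text; the increases reach much further from 0 than the decreases.

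Inflammatory cytokines had the highest median of the 42 gene lists over all 12 libraries, closely followed by the interferon-stimulated genes. Within set A the chemokines (median 6.01) and interferon-stimulated genes (5.99) stood above the cytokines (4.81), and within set B the acute phase genes (6.57) did so (cytokines 5.29). Of 26 tested members of the list 24 rose and 0 fell, with a median log2 fold change of 5.24, against -0.06 over all tested genes. Il6, a cytokine that drives the acute phase response (ENSMUSG00000025746, chromosome 5, 30013114 to 30019981), stood at 331 to 497 CPM (median 402) at 8 h and at 0 to 0.164 CPM (median 0.0616) in controls, where it had 6 counts in all. No library of either group came near the other, and the log2 fold change was 12.35 ± 0.50 (adjusted p = 3.54e-21). Il12b encodes the p40 chain shared by IL-12 and IL-23 and had 229 to 1044 CPM (median 676) at 8 h against 0 to 0.670 CPM (median 0.0959) in controls (11.68 ± 0.67, adjusted p = 4.47e-17). Il1b, the inflammasome-processed cytokine IL-1β, had 1173 to 1772 CPM (median 1473) against 0.424 to 1.54 CPM (median 0.735) (10.78 ± 0.49, adjusted p = 8.07e-20). All LPS libraries were above all controls for both genes, and for Il12b the LPS libraries of set A held 229 to 431 CPM and those of set B 920.3 to 1044 CPM.

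Tnf, the early proinflammatory cytokine (ENSMUSG00000024401, chromosome 17, 35199381 to 35202007), rose by 6.52 ± 0.23 on the log2 scale (adjusted p = 5.93e-23), with 1426 to 3164 CPM (median 2096) at 8 h and 15.01 to 35.7 CPM (median 23.5) in controls. The LPS libraries fell apart by set: those of set A held 2727 to 3164 CPM and those of set B 1426 to 1465 CPM. Il10, the main anti-inflammatory cytokine of macrophages, rose as well, with 26.1 to 122 CPM (median 76.2) against 0.900 to 2.93 CPM (median 1.46) (5.54 ± 0.52, adjusted p = 1.79e-11). It ran the other way between the sets, at 26.1 to 34.9 CPM in set A and 118 to 122 CPM in set B at 8 h. Ifnb1, which encodes interferon beta, held 4.17 to 11.5 CPM (median 6.35) at 8 h against 0 to 0.303 CPM (median 0.180) in controls (15 counts in all), a log2 fold change of 5.30 ± 0.51 (adjusted p = 3.29e-11). The members not called included Tgfb1 (named after its values were seen), a growth factor that restrains inflammation, at 248 ± 58.6 CPM at 8 h and 267 ± 32.9 CPM in controls (SD, n = 6 each), with an edgeR adjusted p of 0.437.

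Chemokines rose almost as a whole: 19 of 20 tested members were higher and 0 lower, with a median of 5.06. Cxcl9, an interferon gamma-inducible attractant of T cells, showed 298 to 613 CPM (median 358) at 8 h and 0 to 0.335 CPM (median 0.0606) in controls (11.58 ± 0.62, adjusted p = 8.46e-18; 11 counts in all controls). Ccl5 (RANTES) had 6939 to 8983 CPM (median 7924) against 0.872 to 9.24 CPM (median 3.44) (10.94 ± 0.45, adjusted p = 5.55e-21). Cxcl10, another ligand of CXCR3 (ENSMUSG00000034855, chromosome 5, 92346638 to 92348889), had 3728 to 6499 CPM (median 4966) against 1.35 to 5.02 CPM (median 2.52) (10.74 ± 0.41, adjusted p = 6.37e-22). For each of the 3 genes no LPS library overlapped a control, and the 3 set A controls had no Cxcl9 read at all. The receptors for such signals were mixed, with 6 of 15 higher and 4 lower (5 higher and 7 lower with library totals alone). The formyl peptide receptors Fpr2 (7.88 ± 0.42) and Fpr1 (7.75 ± 0.69), which sense bacterial peptides, and the chemerin-binding receptor Ccrl2 (6.43 ± 0.16) rose. Cxcr4, the receptor that holds cells in the marrow, fell to 0.704 to 1.68 CPM (median 1.38) at 8 h, against 8.95 to 40.9 CPM (median 37.6) in controls (-4.65 ± 0.44, adjusted p = 2.07e-11). Ccr2 (-1.45 ± 0.53, adjusted p = 0.0143) and Cx3cr1 (-2.01 ± 0.69, adjusted p = 0.01), receptors of monocytes, were also called lower, with libraries of both groups overlapping.

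Every tested member of the list of NF-kB subunits and feedback genes rose, 27 of 27, with a median of 3.63, and in each of them all LPS libraries lay above all controls. Nfkbia, the inhibitor that NF-kB itself induces (ENSMUSG00000021025, chromosome 12, 55489410 to 55492647), had 1185 to 1345 CPM (median 1243) at 8 h and 33.3 to 44.2 CPM (median 38.0) in controls (5.05 ± 0.12, adjusted p = 4.95e-27). The subunit genes rose less: Nfkb1 by 3.07 ± 0.08 and Rela by 1.36 ± 0.12 (adjusted p = 5.21e-26 and 4.78e-12). Cd40, a receptor for T cell help, rose by 7.53 ± 0.31 and Traf1, a signalling adaptor of TNF receptors, by 6.83 ± 0.37. The SOCS proteins switch off cytokine receptor signalling. Socs1 (ENSMUSG00000038037, chromosome 16, 10782240 to 10785536) had 68.6 to 95.9 CPM (median 92.7) at 8 h and 0.476 to 2.06 CPM (median 1.80) in controls (5.76 ± 0.30, adjusted p = 5.09e-18), and Socs3 had 804 to 1640.2 CPM (median 1245) against 2.22 to 4.55 CPM (median 3.23) (8.57 ± 0.31, adjusted p = 2.59e-22). Neither SOCS gene had overlapping groups.

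Of the Toll-like receptors and adaptors 17 of 26 rose and 5 fell (16 higher and 8 lower with library totals alone). Tlr3, the sensor of double-stranded RNA, rose by 4.70 ± 0.22, and Tlr2 and Tlr1, which sense bacterial lipopeptides as a pair, by 3.55 ± 0.17 and 3.42 ± 0.17. Tlr4, the LPS receptor itself, was named after its values were seen: it held 38.3 to 91.7 CPM (median 65.4) at 8 h and 76.5 to 96.9 CPM (median 89.4) in controls, the groups overlapped, and it was not called (-0.41 ± 0.21, adjusted p = 0.073). At 8 h the libraries of set A held 83.3 to 91.7 CPM of Tlr4 and those of set B 38.3 to 47.4 CPM, and the log2 fold change was 0.10 within set A and -1.08 within set B. Leaving out LPS 8 h replicate 1, 2 or 6 made Tlr4 a called decrease (-0.52, -0.53 and -0.49). Tlr13, which senses bacterial ribosomal RNA, fell by 1.41 ± 0.10 on the log2 scale, and Irak1 (-0.56 ± 0.09), a kinase downstream of MyD88, was also among the lower genes.

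All 49 of 49 tested interferon-stimulated genes were higher at 8 h, their median log2 fold change being 5.17 and no overlap between groups in any of them. Gbp5, a guanylate-binding protein of cell-autonomous immunity, had 2891 to 4448 CPM (median 3271) at 8 h and 1.15 to 5.36 CPM (median 3.23) in controls (10.14 ± 0.38, adjusted p = 3.17e-22). The immunity-related GTPase Iigp1 rose by 9.65 ± 0.59 and Ifit1bl1, of the IFIT family of viral RNA-binding proteins, by 9.10 ± 0.53. Near-identical relatives of both exist, so their counts may be shared. Rsad2, the antiviral enzyme viperin, and Isg15, a ubiquitin-like modifier, were named after their values were seen because their promoters are printed. Rsad2 had 14682 to 25586 CPM (median 18631) against 20.6 to 155 CPM (median 67.6) (8.04 ± 0.50, adjusted p = 4.20e-16), and Isg15 had 1872 to 2465 CPM (median 2095) against 6.82 to 61.6 CPM (median 29.7) (6.08 ± 0.45, adjusted p = 3.78e-14). The controls differed by set: those of set A held 20.6 to 28.3 CPM of Rsad2 and those of set B 107 to 155 CPM, and for Isg15 the values were 6.82 to 9.28 and 50.1 to 61.6 CPM. The list median was 5.99 within set A and 4.47 within set B.

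The transcription factors of the interferon response moved with these genes, 12 of 15 higher and 1 lower. Irf1 rose by 4.67 ± 0.22 and Stat2, a subunit of the interferon-activated complex ISGF3, by 3.67 ± 0.26. Irf7, the amplifier of type I interferon production, had 2524 to 3971 CPM (median 3363) at 8 h and 15.5 to 243 CPM (median 131) in controls (4.66 ± 0.62, adjusted p = 3.46e-08). Its controls formed separate bands of 15.5 to 29.7 CPM in set A and 233 to 243 CPM in set B, which gave log2 fold changes of 6.94 and 3.98. Stat6, the factor downstream of interleukin 4, was the member that fell (-0.72 ± 0.07, adjusted p = 7.70e-11).

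To show promoter letters of genes from the groups that rose, 4 windows of RefSeq promoters (GRCm38.p6, 250 bases before to 50 after the gene start, 5′ to 3′ on the gene's strand) are printed with matches in capitals. Cxcl10 (NF-kB site matches and the interferon-stimulated response element GAAANNGAAA) is a chemokine gene and Nfkbia (NF-kB site) a feedback gene, and Isg15 and Rsad2 (GAAANNGAAA) are interferon-stimulated genes.
Cxcl10 chr5:92348840-92349139, minus strand: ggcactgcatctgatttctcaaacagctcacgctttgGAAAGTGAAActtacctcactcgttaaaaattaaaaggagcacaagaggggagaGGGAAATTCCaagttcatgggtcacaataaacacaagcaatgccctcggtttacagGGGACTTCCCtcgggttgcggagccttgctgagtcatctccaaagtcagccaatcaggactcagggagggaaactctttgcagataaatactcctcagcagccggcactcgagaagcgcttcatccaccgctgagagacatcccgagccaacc
Nfkbia chr12:55492598-55492897, minus strand: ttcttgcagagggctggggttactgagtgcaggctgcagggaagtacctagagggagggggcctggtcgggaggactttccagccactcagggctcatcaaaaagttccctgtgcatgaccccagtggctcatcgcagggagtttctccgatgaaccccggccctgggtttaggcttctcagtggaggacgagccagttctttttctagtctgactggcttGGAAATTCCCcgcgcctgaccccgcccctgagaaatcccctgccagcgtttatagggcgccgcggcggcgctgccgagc
Isg15 chr4:156200769-156201068, minus strand: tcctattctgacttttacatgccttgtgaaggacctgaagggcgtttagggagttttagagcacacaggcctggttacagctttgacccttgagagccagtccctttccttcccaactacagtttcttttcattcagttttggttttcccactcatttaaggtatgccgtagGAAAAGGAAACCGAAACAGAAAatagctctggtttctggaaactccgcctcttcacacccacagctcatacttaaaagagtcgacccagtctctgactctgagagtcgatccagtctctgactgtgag
Rsad2 chr12:26456403-26456702, minus strand: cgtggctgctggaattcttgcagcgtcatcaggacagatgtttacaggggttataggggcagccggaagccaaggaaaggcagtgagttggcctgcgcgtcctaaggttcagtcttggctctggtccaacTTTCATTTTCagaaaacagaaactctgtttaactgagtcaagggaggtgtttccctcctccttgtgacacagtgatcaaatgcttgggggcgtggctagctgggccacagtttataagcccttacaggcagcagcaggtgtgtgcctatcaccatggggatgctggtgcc
In Cxcl10 the NF-kB matches began 159 and 103 bases before the start and the response element 213 bases before it, and the Isg15 matches overlapped one another. Searched on both strands, GAAANNGAAA was present in 64.7% of the 34 interferon-stimulated genes with a window, in 5.64% of genes called higher, in 2.03% of genes called lower and in 3.33% of all 9762 tested genes with a window. The NF-kB site was present in 45.5% of 22 NF-kB subunit and feedback genes, in 6.25% of genes called higher, in 4.36% of genes called lower and in 5.05% of all. It was in 5 of 17 cytokine windows (29.4%) and 5 of 13 chemokine windows (38.5%). GAAANNGAAA was in 1 of 17 cytokine windows (5.88%) and in 1 of 13 chemokine windows (7.69%), that of Cxcl10. A match is a description of letters and says nothing of binding.

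Antigen presentation by MHC class I rose in all 22 of 22 tested genes (median 2.78). Tap1, a subunit of the peptide transporter, had 1250.3 to 1458 CPM (median 1273) at 8 h against 43.8 to 114 CPM (median 74.0) in controls (4.14 ± 0.25, adjusted p = 1.38e-16). Nlrc5, the transactivator of class I genes, rose by 4.12 ± 0.26 and the class I gene H2-T22, whose reads may be shared with near-identical copies, by 3.65 ± 0.19. The proteasome cuts the peptides that class I displays, and 25 of 30 core and cap subunits were called higher and 0 lower (6 higher and 20 lower with library totals alone), with Psma5 at 1.79 ± 0.09, Psma6 at 1.79 ± 0.11 and Psmb6 at 1.39 ± 0.08. Its median of 0.53 turned to -0.29 with library totals alone. MHC class II genes rose less, 7 of 10 with a median of 1.09 (3 higher and 1 lower with library totals alone). Ciita, their master regulator, had 4.12 to 24.5 CPM (median 19.8) against 0.328 to 2.12 CPM (median 1.35) (3.58 ± 0.45, adjusted p = 1.45e-08), while H2-Ab1 (2.15 ± 0.60, adjusted p = 0.00201) and the invariant chain gene Cd74 (1.65 ± 0.52, adjusted p = 0.00482) were called with overlapping groups. Cd74 was not called with library totals alone (0.84).

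Costimulatory and checkpoint ligands were higher in 10 of 13 cases and lower in 2. Cd274, which encodes the inhibitory ligand PD-L1, had 3680.4 to 5115 CPM (median 4264) at 8 h against 39.6 to 98.6 CPM (median 65.3) in controls (6.01 ± 0.26, adjusted p = 1.53e-20), and Cd86, a ligand of CD28, rose by 4.57 ± 0.24. The inhibitory ligand Vsir (VISTA) fell (-1.11 ± 0.25, adjusted p = 1.56e-04), with log2 fold changes of -1.66 within set A and -0.34 within set B, as did Cd276 (-1.82 ± 0.27, adjusted p = 4.15e-07), whose groups overlapped.

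Nitric oxide is made from arginine, and Nos2 (ENSMUSG00000020826, chromosome 11, 78920787 to 78960254), which encodes the inducible enzyme, showed the largest increase of those at a mean log2 CPM of at least 2. It had 3113 to 4683 CPM (median 3968) at 8 h and 0.0562 to 2.48 CPM (median 0.330) in controls, a log2 fold change of 12.54 ± 0.65 (adjusted p = 2.91e-18). At 8 h the set B libraries were the higher, with 4407 to 4683 CPM against 3113 to 3529.7 CPM in set A, and no library was near the control range. Slc7a2, the cationic transporter that brings arginine into macrophages, rose by 7.11 ± 0.44 and Gch1, the first enzyme of the NOS cofactor tetrahydrobiopterin, by 3.62 ± 0.14. Srm, the spermidine synthase (-2.16 ± 0.39), Ddah2, which clears an endogenous NOS inhibitor (-1.65 ± 0.21), and Spr, the last enzyme of tetrahydrobiopterin synthesis (-1.32 ± 0.12), fell. Arg1, the arginase that competes with NOS2 for arginine, had 0.111 to 3.54 CPM (median 1.13) at 8 h and 0.273 to 5.69 CPM (median 3.12) in controls and was not called (-0.99 ± 1.01, adjusted p = 0.388), although it was called lower within set B (-0.93). Nos3, the endothelial synthase, had 2 counts in all LPS 8 h libraries and 8 in all controls, too few to be tested. Over the whole list 6 of 16 genes rose and 6 fell (5 higher and 10 lower with library totals alone), near the shares over all tested genes.

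Enzymes of lipid mediators moved in both directions. Ptgs2 (COX-2), which starts prostaglandin synthesis, had 2051 to 2633 CPM (median 2189.9) at 8 h against 0.317 to 2.75 CPM (median 1.43) in controls (10.52 ± 0.39, adjusted p = 2.72e-22). Ptges, the inducible prostaglandin E synthase, rose by 6.45 ± 0.31 and the phospholipase Pla2g4a, which frees arachidonic acid, by 2.92 ± 0.31. Ptgs1, the constitutive COX-1 (-1.31 ± 0.24), Hpgds, the prostaglandin D synthase (-1.25 ± 0.21), and Lta4h, the leukotriene A4 hydrolase (-1.26 ± 0.09), fell, and the list held 5 higher and 8 lower genes of 14 (3 higher and 10 lower with library totals alone). Receptors of purines and lipid mediators were higher in 16 and lower in 8 of 25 cases (11 higher and 9 lower with library totals alone). Adora2a, an adenosine receptor that dampens macrophage activation, rose by 9.58 ± 0.44 (19 counts in all controls), and Lpar1 and the niacin receptor Hcar2 by 5.97 ± 0.27 and 5.88 ± 0.44. Cnr2, the peripheral cannabinoid receptor, fell to 0.512 to 2.90 CPM (median 1.90) at 8 h, against 22.6 to 29.3 CPM (median 28.5) in controls (-3.95 ± 0.26, adjusted p = 1.33e-15), and the sphingosine phosphate receptor S1pr1 fell by 3.14 ± 0.33 on the log2 scale.

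Acod1, which makes the antibacterial metabolite itaconate from a citric acid cycle intermediate, had 9250.1 to 12048 CPM (median 10836) at 8 h against 0.793 to 10.7 CPM (median 3.09) in controls (11.27 ± 0.52, adjusted p = 9.86e-20). In the citric acid cycle list 6 of 26 genes were higher, Acod1 included, and 9 lower (1 higher and 23 lower with library totals alone). Idh1, the cytosolic isocitrate dehydrogenase, fell by 1.68 ± 0.23 and Fh1, fumarase, by 1.12 ± 0.12 on the log2 scale. For glycolysis 8 of 21 genes rose and 4 fell (6 higher and 11 lower with library totals alone). The transporter gene Slc2a6 (5.94 ± 0.23), Pfkfb3, which makes an activator of glycolytic flux (3.64 ± 0.42), and the myeloid hexokinase Hk3 (1.91 ± 0.13) rose, whereas the glucose transporter Slc2a3 (-2.23 ± 0.29) and Gpi1, glucose-6-phosphate isomerase (-0.69 ± 0.10), fell. Respiratory chain subunits were called higher in 25 and lower in 6 of 52 cases (1 higher and 48 lower with library totals alone), and their median of 0.16 turned to -0.66 with library totals alone. Cycs, cytochrome c, led them with 199 to 304 CPM (median 226) at 8 h against 32.8 to 82.0 CPM (median 68.6) in controls (1.98 ± 0.25, adjusted p = 1.49e-08).

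Sterol and fatty acid synthesis was a pathway in which the sets went apart. Over all 12 libraries 7 of 33 genes rose and 10 fell (1 higher and 21 lower with library totals alone). Within set A, where 33.3% of all genes were called higher and 34.3% lower, 19 were higher and 4 lower, with a median log2 fold change of 0.59. Within set B, where the shares were 37.5% and 39.7%, 3 were higher and 25 lower, with a median of -0.61. Hmgcs1, an early enzyme of cholesterol synthesis, held 201 to 367.6 CPM in set A and 81.7 to 97.6 CPM in set B at 8 h, against 53.2 to 84.6 and 91.3 to 97.9 CPM in the controls of these sets. It was called over all libraries (1.21 ± 0.32, adjusted p = 0.00115), with log2 fold changes of 2.05 for set A and -0.07 for set B, while Idi1, the isomerase of isoprenoid synthesis, gave 1.86 and -0.12. Neither was called with library totals alone (0.37 and 0.20). The desaturases Scd2 (-3.21 ± 0.48) and Fads1 (-2.41 ± 0.11) and the cholesterol enzyme Dhcr7 (-1.99 ± 0.16) fell in both sets. Of 23 genes of lipid handling and efflux 6 rose and 6 fell (4 higher and 16 lower with library totals alone). Nr1h3 (the oxysterol receptor LXRα) rose by 2.45 ± 0.14 and the cholesterol exporter Abcg1 by 1.43 ± 0.21. Pparg, the fatty acid receptor PPARγ, fell to 3.43 to 5.49 CPM (median 3.90) at 8 h, against 35.3 to 42.9 CPM (median 41.3) in controls (-3.24 ± 0.16, adjusted p = 9.74e-19), and its partner Rxra fell by 1.88 ± 0.16 on the log2 scale.

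The subunits of the phagocyte NADPH oxidase, which makes superoxide, rose in 6 of 7 cases (4 higher and 3 lower with library totals alone). Cybb, the catalytic gp91phox subunit, had 3195 to 4155 CPM (median 3266) at 8 h against 341 to 432 CPM (median 402) in controls (3.16 ± 0.10, adjusted p = 1.81e-23), and Ncf1 and Rac2 rose by 1.86 ± 0.08 and 1.54 ± 0.09. Antioxidant genes were mixed, 11 higher and 5 lower of 23 (7 higher and 11 lower with library totals alone). Sod2, the mitochondrial superoxide dismutase, rose by 4.79 ± 0.12, the cystine transporter gene Slc7a11 by 4.06 ± 0.41 and the peroxiredoxin Prdx5 by 2.96 ± 0.10. Gclc, the limiting enzyme of glutathione synthesis, fell by 1.66 ± 0.24 on the log2 scale, with log2 fold changes of -1.05 within set A and -2.70 within set B, and the metallothionein Mt1 fell by 1.44 ± 0.12.

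Receptors for opsonised targets rose together, all 5 of 5 genes of the Fc gamma list. Fcgr1, the high-affinity IgG receptor, had 1369 to 1889 CPM (median 1698) at 8 h against 78.0 to 240.2 CPM (median 165) in controls (3.36 ± 0.31, adjusted p = 1.11e-11), with Fcgr4 at 3.39 ± 0.24 and the inhibitory Fcgr2b at 2.88 ± 0.34. Scavenger and clearance receptors divided into 10 higher and 9 lower of 22 (8 higher and 13 lower with library totals alone). This was near the shares over all tested genes, 34.9% higher and 37.2% lower. Marco rose by 3.90 ± 0.44 and the receptor kinases Axl and Mertk, which bind dying cells, by 2.83 ± 0.36 and 1.99 ± 0.31. Their bridging ligand Gas6 fell (-1.45 ± 0.23), as did the haemoglobin scavenger receptor Cd163 (-2.97 ± 0.33) and Lrp1 (-0.99 ± 0.13). Of the C-type lectin receptors 7 of 13 rose and 1 fell (4 higher and 4 lower with library totals alone): Clec4e (Mincle, a receptor for mycobacterial glycolipid) rose by 6.97 ± 0.26, and the galactose-binding Clec10a fell by 1.85 ± 0.23 on the log2 scale. C3, the central complement protein, had 1609 to 2833 CPM (median 2392) at 8 h against 5.39 to 25.1 CPM (median 14.8) in controls (7.28 ± 0.45, adjusted p = 4.14e-16), while the C5a receptor gene C5ar1 fell by 1.01 ± 0.11. Of 16 complement genes 11 rose and 1 fell (7 higher and 7 lower with library totals alone).

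Lysosomal genes were called higher in 16 and lower in 5 of 30 cases (6 higher and 21 lower with library totals alone), with cathepsin C (Ctsc) at 3.43 ± 0.30 and Tfeb, a regulator of lysosome genes, at -1.35 ± 0.20. Iron genes changed in both directions, 8 higher and 6 lower of 19 (5 higher and 11 lower with library totals alone), near the shares over all tested genes. Lcn2, lipocalin 2, which takes iron carriers from bacteria, rose by 5.08 ± 0.65 and the importer Slc11a2 (DMT1) by 3.09 ± 0.10. Slc40a1, the iron exporter ferroportin, had 2.62 to 44.8 CPM (median 15.2) at 8 h against 93.0 to 619 CPM (median 197) in controls (-3.89 ± 0.69, adjusted p = 6.16e-06). The groups did not overlap, and set A held 26.9 to 44.8 CPM at 8 h against 290.1 to 619 CPM in controls, and set B 2.62 to 3.42 CPM against 93.0 to 104 CPM. Acute phase and serpin genes rose in 13 of 14 cases. Saa3, a serum amyloid A of macrophages, had 886 to 6979.9 CPM (median 4133) against 0.634 to 7.23 CPM (median 3.82) (10.02 ± 0.75, adjusted p = 5.20e-14), and at 8 h it held 886 to 2066 CPM in set A and 6201 to 6979.9 CPM in set B. Serpina3g rose by 9.70 ± 0.50 and Serpina3f by 9.42 ± 0.49, although these neighbours belong to a family of near-identical copies whose reads may be shared. In the list of integrins and adhesion genes 15 of 24 rose and 5 fell (10 higher and 10 lower with library totals alone), with the activation antigen Cd69 at 10.09 ± 0.66 and Icam1 at 5.38 ± 0.18 among the higher genes and Itga6 (-1.87 ± 0.14) among the lower.

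**Figure D2:**
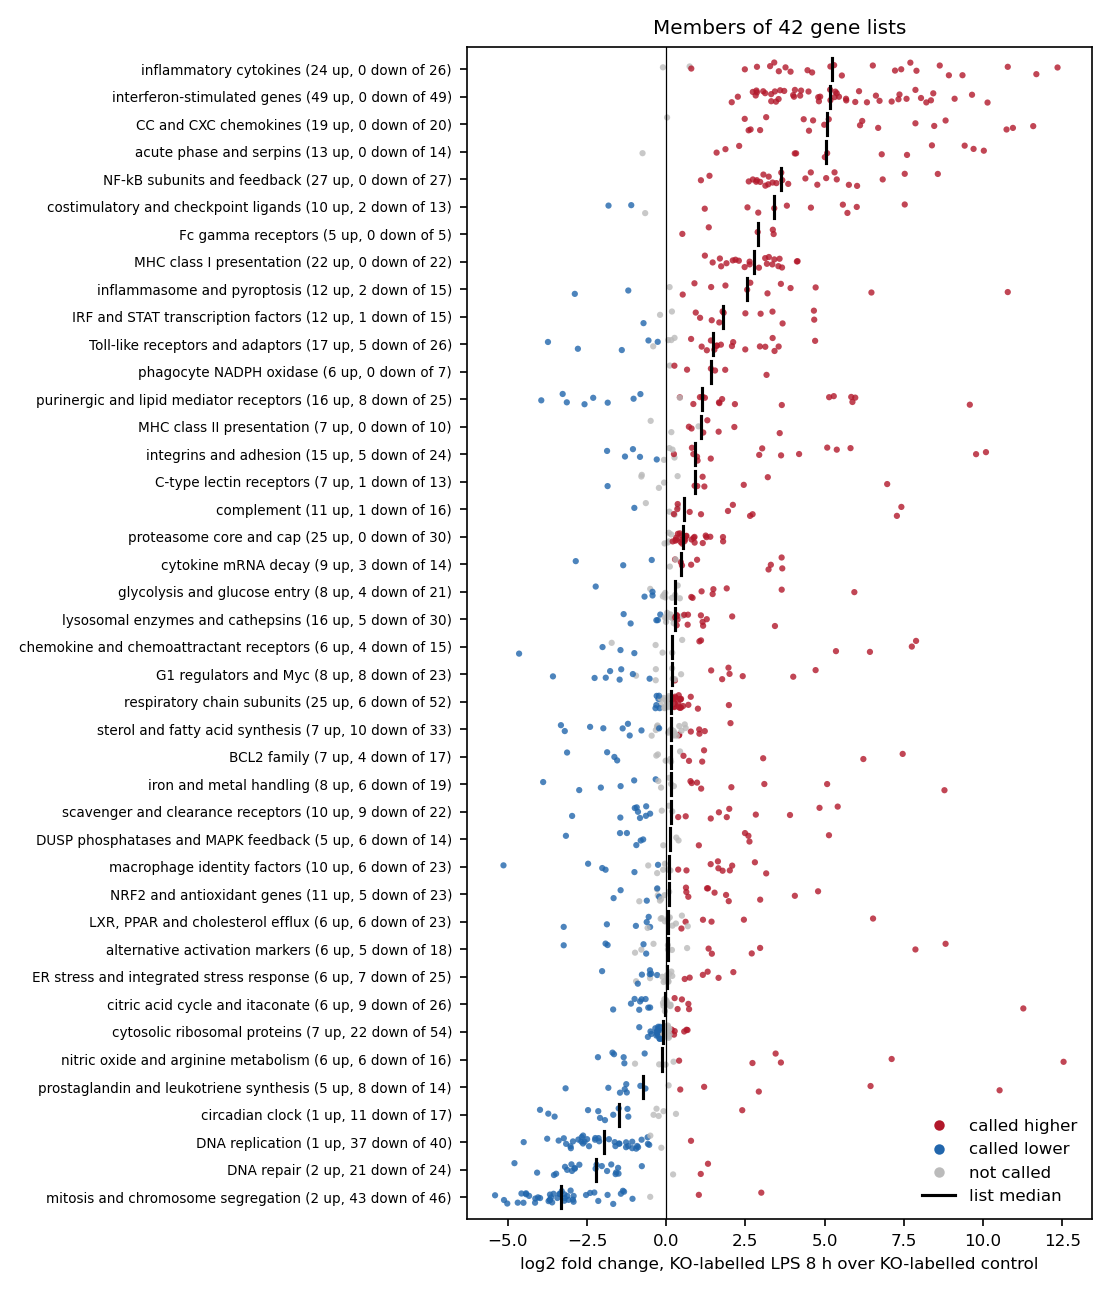
Each row is 1 of 42 gene lists and each point a tested member, with the log2 fold change of KO-labelled LPS 8 h over KO-labelled control on the x axis, red where called higher, blue where called lower and grey where not called; black bars are list medians. Cytokines, interferon-stimulated genes, chemokines and acute phase genes lie at the top with medians above 5, and mitosis, DNA repair and DNA replication genes at the bottom with medians of -3.33, -2.22 and -1.97.

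Of 15 tested inflammasome and pyroptosis genes 12 were higher and 2 lower. The pyrin gene Mefv rose by 6.48 ± 0.43 and Casp4, the sensor of cytosolic LPS, by 4.71 ± 0.25, while the sensor Nlrp1b (-2.89 ± 0.38) and the pore-forming protein gene Gsdme (-1.20 ± 0.21) fell. In the BCL2 family 7 of 17 rose and 4 fell (5 higher and 9 lower with library totals alone). The survival genes Bcl2a1a, Bcl2a1d and Bcl2a1b rose by 7.46 ± 0.26, 6.22 ± 0.16 and 3.06 ± 0.13, and because they are near-identical copies the split of reads between them is uncertain. Bcl2 itself fell to 2.51 to 6.82 CPM (median 4.09) at 8 h, against 7.17 to 21.7 CPM (median 18.2) in controls (-1.87 ± 0.32, adjusted p = 3.58e-06).

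Cell cycle genes fell as a block. In the mitosis list 43 of 46 genes were lower and 2 higher, with a median of -3.33, or -3.97 within set A and -2.95 within set B. Anln, anillin of the cleavage furrow, had 0.442 to 2.48 CPM (median 1.01) at 8 h against 36.8 to 68.6 CPM (median 56.0) in controls (-5.41 ± 0.44, adjusted p = 4.57e-13). Kif23, a kinesin of the central spindle, had 0.553 to 4.77 CPM (median 2.10) against 48.4 to 83.7 CPM (median 77.1) (-5.02 ± 0.33, adjusted p = 1.41e-15), and Cenpf, a kinetochore protein gene, 0.402 to 2.15 CPM (median 0.505) against 21.5 to 33.1 CPM (median 31.2) (-5.12 ± 0.35, adjusted p = 6.57e-15). None of these genes had an LPS library as high as any control, and for Kif23 the set A libraries were the lowest at 8 h. The exceptions were Pttg1, the separase inhibitor securin, with 80.8 to 154 CPM (median 118) at 8 h against 13.1 to 18.2 CPM (median 14.3) in controls (2.999 ± 0.17, adjusted p = 2.29e-17), and the spindle assembly factor Tpx2 (1.03 ± 0.24, adjusted p = 2.74e-04), which both rose. Tpx2 was not called with library totals alone (0.20).

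Genes of DNA replication fell in 37 of 40 cases (median -1.97). Rrm2, a subunit of the enzyme that makes deoxynucleotides, had 1.11 to 7.67 CPM (median 3.76) at 8 h against 57.0 to 123 CPM (median 97.7) in controls (-4.50 ± 0.46, adjusted p = 1.01e-10), and the helicase subunit Mcm2 had 1.54 to 10.7 CPM (median 7.10) against 30.7 to 95.5 CPM (median 75.3) (-3.40 ± 0.45, adjusted p = 3.11e-08). The set A libraries were lower than those of set B within each group for Mcm2. The clamp loader subunit Rfc3 was the member that rose (0.78 ± 0.19, adjusted p = 6.17e-04, but -0.05 with library totals alone). DNA repair genes fell in 21 of 24 cases, with Chek2, a checkpoint kinase, at -3.48 ± 0.20 and Fancd2 of the Fanconi pathway at -3.20 ± 0.37. The damage kinase Atm (1.09 ± 0.22, adjusted p = 5.22e-05) and the end resection factor Rbbp8 (1.32 ± 0.11, adjusted p = 1.57e-12) rose, Atm without a call under library totals alone (0.26).

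Regulators of G1 went both ways, 8 higher and 8 lower of 23 (7 higher and 14 lower with library totals alone), near the shares over all tested genes. Mxd1, an antagonist of Myc, rose by 4.71 ± 0.19 and their shared partner Max by 2.41 ± 0.12, while Myc fell to 5.97 to 15.6 CPM (median 12.3) at 8 h, against 19.5 to 62.0 CPM (median 48.8) in controls (-1.91 ± 0.25, adjusted p = 3.04e-08). Ccnd2, cyclin D2, rose by 4.01 ± 0.26, and Cdk2 and the inhibitor Cdkn2c fell by 2.26 ± 0.18 and 3.58 ± 0.20 on the log2 scale. Counts from bulk cultures cannot tell fewer dividing cells from less RNA per cell.

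The promoters of mitotic genes are known to carry CCAAT boxes and the cell cycle homology region (CHR). Windows of Cdc20, the mitotic exit activator, named after its values were seen, and Cenpf are printed as above with CCAAT and TTTGAA in capitals.
Cdc20 chr4:118437294-118437593, minus strand: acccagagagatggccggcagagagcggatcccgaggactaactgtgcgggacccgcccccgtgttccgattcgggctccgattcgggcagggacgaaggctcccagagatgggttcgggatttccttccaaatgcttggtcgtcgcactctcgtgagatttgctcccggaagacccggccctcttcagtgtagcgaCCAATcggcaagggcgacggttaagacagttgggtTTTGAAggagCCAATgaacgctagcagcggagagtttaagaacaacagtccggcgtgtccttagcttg
Cenpf chr1:189688037-189688336, minus strand: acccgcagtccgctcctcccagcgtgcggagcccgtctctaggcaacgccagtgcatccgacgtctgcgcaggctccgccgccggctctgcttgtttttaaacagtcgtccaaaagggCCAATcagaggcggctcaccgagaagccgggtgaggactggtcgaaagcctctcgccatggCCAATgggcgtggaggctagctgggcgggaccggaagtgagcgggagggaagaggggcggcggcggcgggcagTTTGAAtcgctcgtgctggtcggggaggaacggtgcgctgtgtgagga
Cdc20 itself had 0.111 to 2.48 CPM (median 1.24) at 8 h against 20.4 to 37.1 CPM (median 35.7) in controls (-4.69 ± 0.36, adjusted p = 8.28e-14). The letters TTTGAA, on either strand, were in the windows of 73% of 37 mitosis genes, of 12.9% of 31 replication genes, of 13.7% of genes called lower, of 11.1% of genes called higher and of 12.2% of all tested genes with a window. CCAAT was in 75.7% of the mitosis genes, 58.1% of the replication genes, 41.5% of genes called lower, 35.9% of genes called higher and 39% of all. The mitosis windows thus held both motifs more often than the tested genes at large, and the replication windows held CCAAT more often and TTTGAA about as often. Among lists that rose, TTTGAA was in 29.4% of 34 interferon-stimulated, 23.1% of 13 chemokine, 5.88% of 17 cytokine and 0% of 22 NF-kB windows. It was in 17% of genes called higher with a log2 fold change of 3 or more and in 22.2% of those called lower at -3 or less. No test was made.

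Outside the lists the largest falls, at a mean log2 CPM of at least 2, included Rasgrp3, an exchange factor for Ras proteins (ENSMUSG00000071042, chromosome 17, 75435896 to 75529054). It had 0.205 to 1.53 CPM (median 0.789) at 8 h against 39.6 to 54.4 CPM (median 50.5) in controls (-5.84 ± 0.22, adjusted p = 6.84e-22). St6gal1, a sialyltransferase gene, fell by 5.37 ± 0.40, the GTPase-activating protein gene Arhgap19 by 5.38 ± 0.28, the glycosyltransferase gene Gcnt1 by 4.95 ± 0.18 and the palmitoyltransferase gene Zdhhc14 by 4.89 ± 0.30 on the log2 scale. Tmem273 (-5.16 ± 0.14), the mitotic regulator Pimreg (-5.18 ± 0.36) and the phosphatase Cdc25b, which starts mitosis (-4.95 ± 0.33), completed this group. Mir155hg, the host gene of microRNA 155, was among the largest rises, with 70.3 to 116 CPM (median 101) at 8 h against 0 to 0.164 CPM (median 0.0335) in controls (10.53 ± 0.35, adjusted p = 1.73e-23; 5 counts in all controls). For all of these genes the groups did not overlap.

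Factors of macrophage identity changed individually: 10 of 23 rose and 6 fell (8 higher and 14 lower with library totals alone). Cebpa, a myeloid lineage factor, had 1.55 to 5.21 CPM (median 2.62) at 8 h against 91.3 to 126 CPM (median 109.5) in controls (-5.14 ± 0.24, adjusted p = 2.05e-19), whereas its relatives Cebpb and Cebpd rose by 3.15 ± 0.21 and 2.80 ± 0.27. The zinc finger factor Egr1 was called lower (-2.47 ± 0.59, adjusted p = 4.04e-04), but its controls held 39.9 to 85.5 CPM in set A and 3.82 to 9.39 CPM in set B, with log2 fold changes of -3.39 and -0.02, and limma-voom did not call it (-1.51). Of the alternative activation markers 6 of 18 rose and 5 fell (5 higher and 9 lower with library totals alone), near the shares over all tested genes. Within set A 8 were higher and 4 lower (median 0.11), beside shares over all genes of 33.3% and 34.3%. Within set B 7 were higher and 9 lower (median -0.425), beside shares of 37.5% and 39.7%. The chemokine Ccl22 (7.86 ± 0.71) and the interleukin 4 receptor Il4ra (2.70 ± 0.33, or 1.27 in set A and 3.35 in set B) rose, and Egr2 fell by 1.92 ± 0.27 on the log2 scale.

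The clock genes fell in 11 of 17 cases, with a median of -1.50. Nr1d1, the repressor REV-ERBα, had 0.307 to 2.52 CPM (median 1.32) at 8 h against 11.4 to 26.6 CPM (median 19.5) in controls (-3.73 ± 0.37, adjusted p = 4.84e-11). Bhlhe40 (-2.47 ± 0.38) and Tef (-2.15 ± 0.29) also fell, and Nfil3, a repressor of D-box genes, was the member that rose (2.40 ± 0.33, adjusted p = 7.90e-08). The labels give no clock time for any library.

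Negative regulators of MAP kinases were split, 5 higher and 6 lower of 14. Dusp2 rose by 5.14 ± 0.28. Dusp1, the phosphatase of p38 and JNK, rose by 2.63 ± 0.53 (adjusted p = 4.59e-05), with log2 fold changes of 1.004 for set A and 4.33 for set B, whereas Dusp6, the ERK phosphatase, fell to 6.95 to 12.9 CPM (median 7.90) at 8 h, against 52.3 to 103 CPM (median 79.8) in controls (-3.17 ± 0.20, adjusted p = 4.34e-16). Regulators of cytokine mRNA decay included Zfp36 (tristetraprolin) at 3.64 ± 0.19 and Zc3h12a (regnase-1) at 3.66 ± 0.14, both higher, and Zfp36l1 at -2.86 ± 0.40, lower. In that list 9 of 14 rose and 3 fell (4 higher and 7 lower with library totals alone). Genes of ER stress and the integrated stress response gave 6 higher and 7 lower of 25 (4 higher and 20 lower with library totals alone), with the chaperone Hspa5 (BiP) at 1.31 ± 0.10, Atf3 at 1.65 ± 0.10 and the ATF4 target Trib3 at -2.03 ± 0.25. Cytosolic ribosomal protein genes were called lower in 22 and higher in 7 of 54 cases (0 higher and 53 lower with library totals alone), all by less than 1 on the log2 scale, from Rpl13a (-0.85 ± 0.14) to Rps24 (0.67 ± 0.08, but -0.15 with library totals alone). Reads of these genes may be shared with pseudogenes.

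Markers of other cell types were measured beside these groups. Neutrophil markers added up to 22.7 to 61.8 CPM at 8 h and 33.1 to 79.0 CPM in controls, and Ly6g was below 1 CPM in every library. T and NK cell markers added up to 21.9 to 48.4 CPM at 8 h and 101 to 229.6 CPM in controls, mostly from Cd28 and, at 8 h, Lck, while Cd3d, Cd3e, Cd3g and Trac stayed below 1 CPM. B cell markers reached at most 25.9 and 52.3 CPM, mast cell markers 3.06 and 10.1 CPM, and skeletal muscle markers 48.1 and 67.5 CPM at 8 h and in controls. Erythroid and megakaryocyte markers added up to 144 to 270.1 CPM at 8 h and 116 to 224 CPM in controls, with every globin gene of the list below 1 CPM. At 8 h 9 of the 12 members were below 1 CPM, so nearly all of the sum came from Itga2b, Pf4 and Ppbp, none of them called over all 12 libraries. Within set A 0 members of this list were called higher and 1 lower, and within set B 3 higher and 1 lower. Epor, named after its values were seen, was called lower (log2 fold change -4.67, edgeR adjusted p = 6.88e-06).

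The lists of dendritic and of stromal and endothelial markers moved with LPS. Dendritic cell markers added up to 277 to 313 CPM at 8 h and 44.7 to 58.8 CPM in controls, and 5 of 9 were called higher. Most of the sum was Tcf4, at 240.5 to 295 CPM (median 259) against 39.8 to 55.6 CPM (median 43.0) (2.55 ± 0.16, adjusted p = 6.90e-16), and Ccr7 (5.36 ± 1.12), Xcr1 (4.57 ± 0.39), Clec9a (4.07 ± 0.55) and Dpp4 (2.14 ± 0.76) were called higher too. Zbtb46 and Cd209a were below 1 CPM in every library. Stromal and endothelial markers added up to 146 to 178 CPM at 8 h and 32.1 to 58.4 CPM in controls, with 7 of 10 called higher. Kdr, a receptor of VEGF, gave the largest part, at 73.1 to 95.1 CPM (median 84.2) against 2.80 to 10.9 CPM (median 6.5) (3.63 ± 0.34, adjusted p = 2.17e-11), and the endothelial genes Pecam1 (4.73 ± 0.36) and Cdh5 (1.77 ± 0.37) were called higher. The fibroblast and mural cell genes Pdgfrb (3.03 ± 0.35), Dcn (2.16 ± 0.71), Col1a2 (0.92 ± 0.30) and Col1a1 (0.83 ± 0.33) were called higher as well, while Lum and Pdgfra were below 1 CPM. With library totals alone Dpp4 (1.35), Dcn (1.36), Col1a2 (0.09) and Col1a1 (0.007) were not called, Dpp4 was not called by limma-voom (1.67), and Col1a1 lost its call without LPS 8 h replicate 1 or 2 (0.70 and 0.696) or control replicate 4 or 5 (0.74 and 0.73). The part of these cell types in the results was not tested, and the markers named here were named after their values were seen.

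Against the KO-labelled libraries taken at 2 h of LPS, 8453 genes (65.2%) passed the test at 8 h, of which 4082 were higher (31.5%) and 4371 lower (33.7%). This comparison shares its 8 h libraries with the one above. All 49 of 49 interferon-stimulated genes and all 22 of 22 class I genes were higher at 8 h than at 2 h, while the mitosis list was lower in 44 of 46 cases. Nos2 averaged 0.655 ± 0.924 CPM in controls, 17.4 ± 10.7 CPM at 2 h and 3923 ± 702 CPM at 8 h (SD, n = 6 each), and 8 h differed from 2 h by 7.81 ± 0.52 on the log2 scale (adjusted p = 4.67e-15). Serpina3g (8.93 ± 0.48) and Serpina3f (8.13 ± 0.45) rose later in the same way, with 2 h means of 1.54 and 0.908 CPM. Olfr56, annotated as an olfactory receptor, was higher by 7.69 ± 0.35, but its interval holds interferon-induced GTPase genes such as Ifi47 and Tgtp2, so its reads cannot be told from theirs. The predicted gene Gm6545 was higher by 7.89 ± 0.35 and Iigp1 by 7.65 ± 0.53.

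Other genes had their highest mean at 2 h. Ifnb1 had 0 to 0.303 CPM (median 0.180) in controls, 68.3 to 139.7 CPM (median 100.4) at 2 h and 4.17 to 11.5 CPM (median 6.35) at 8 h, lower by 3.85 ± 0.33 on the log2 scale at 8 h than at 2 h (adjusted p = 4.14e-12). Tlr2 averaged 19.4 ± 4.19 CPM in controls, 732 ± 96.8 CPM at 2 h and 227 ± 26.5 CPM at 8 h (SD, n = 6 each), and Slc7a11 was lower at 8 h than at 2 h as well (-1.02 ± 0.34, adjusted p = 0.00944). Egr2, an immediate early factor, averaged 17.4, 78.7 and 4.59 CPM at control, 2 h and 8 h, so that it ended below the controls, and the cytoskeletal gene Frmd6 averaged 21.8, 219.6 and 6.13 CPM. Tnf (-0.16 ± 0.18, adjusted p = 0.443), Nfkbia (-0.04 ± 0.10, adjusted p = 0.744) and Irf1 (0.01 ± 0.18, adjusted p = 0.952) were not called between 8 h and 2 h. The largest decreases between 8 h and 2 h were those of Rasgrp3 (-5.46 ± 0.22), St6gal1 (-5.18 ± 0.40), Anln (-5.17 ± 0.44), Frmd6 (-5.16 ± 0.35), Zdhhc14 (-5.03 ± 0.30) and Arhgap19 (-4.68 ± 0.28).

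**Figure D3:**
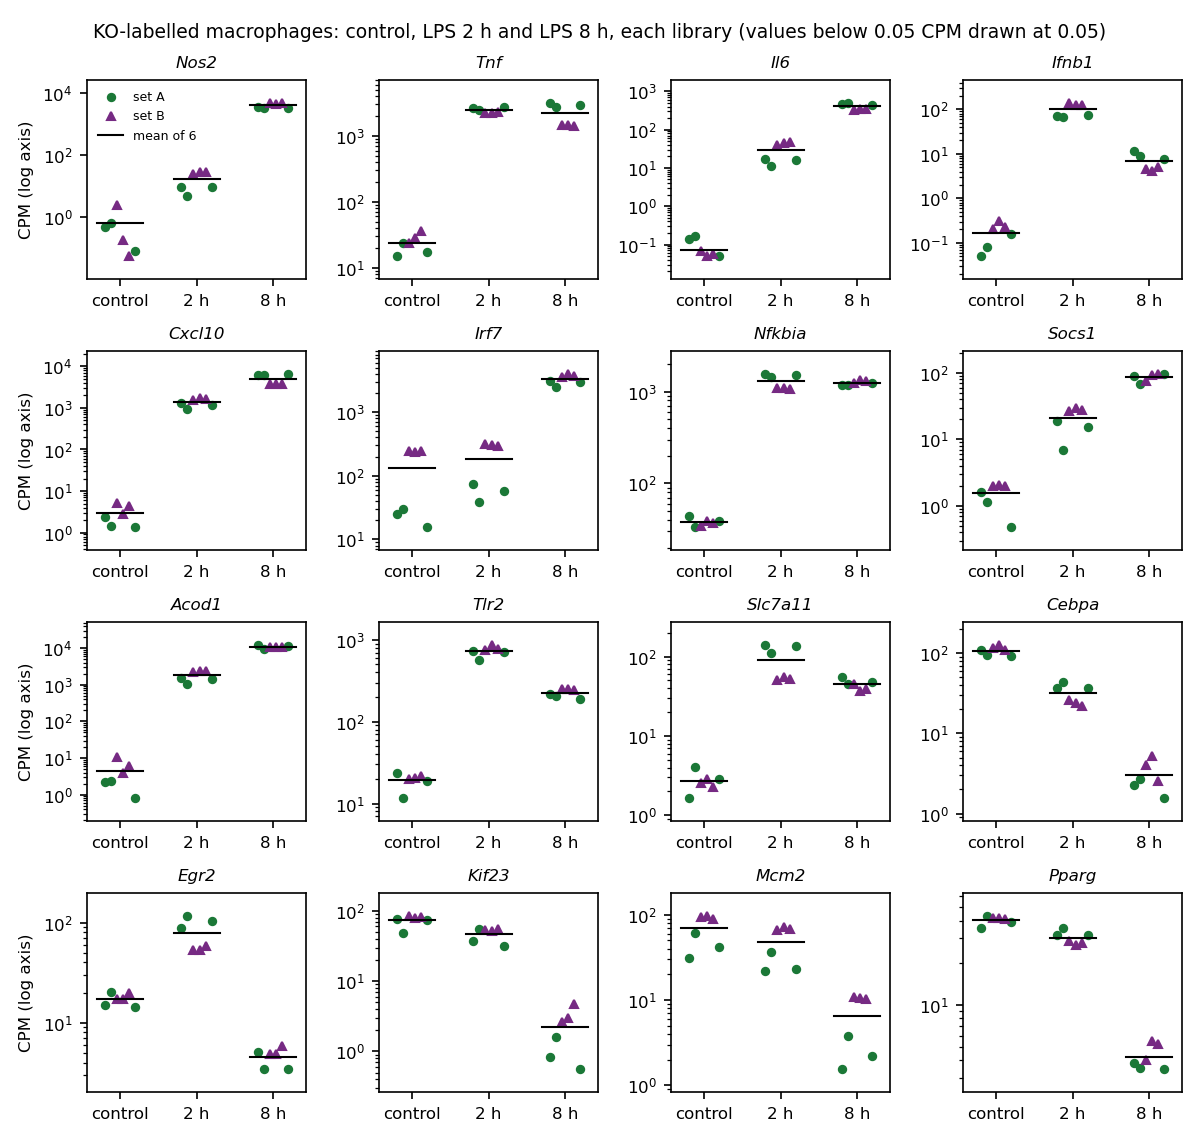
Panels give 16 genes in KO-labelled control, LPS 2 h and LPS 8 h libraries, with CPM on a log axis; green circles are libraries of set A, purple triangles libraries of set B and black bars the means of 6. Nos2 and Irf7 have their highest values at 8 h, Ifnb1, Tlr2, Slc7a11 and Egr2 have their highest means at 2 h, and Kif23, Mcm2 and Pparg have their lowest at 8 h.

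The same genes can be followed within each library set, where every contrast has 3 libraries a group. Within set A 8631 genes (67.5%) were called and within set B 10017 (77.2%). Log2 fold changes were larger in set A for Cd69 (12.37 against 8.54 in set B) and Tnf (7.31 against 5.63), and larger in set B for Il10 (3.71 in set A and 6.86 in set B), Dusp1 and Saa3 (9.85 and 10.11). These differences between the sets were not tested, since the sets were found from the same counts.

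**Figure D4:**
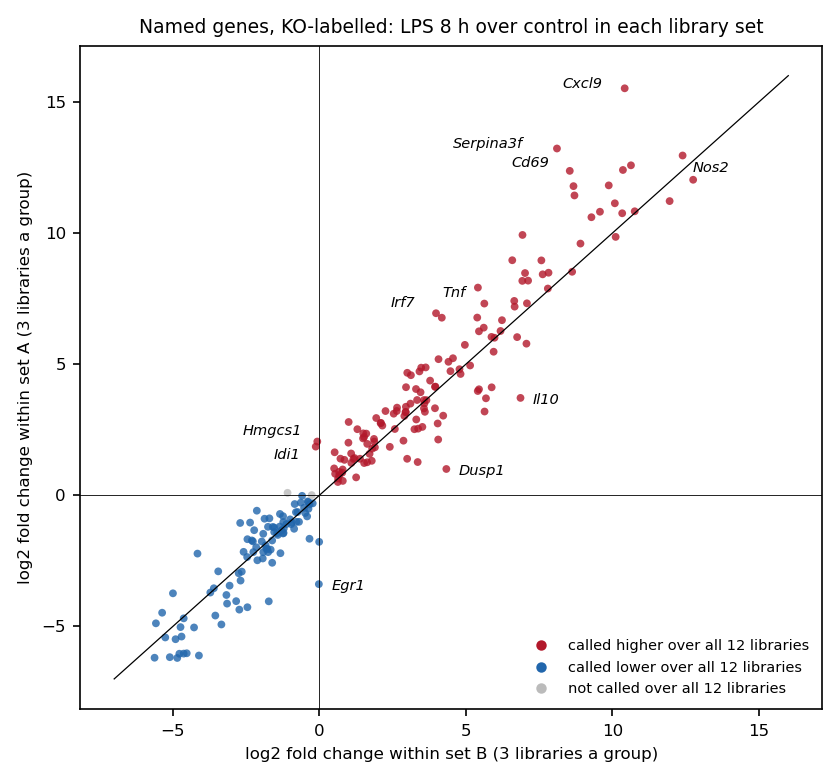
Each point is a named gene, with its log2 fold change of KO-labelled LPS 8 h over control in the 3 libraries a group of set B on the x axis and in those of set A on the y axis; red points were called higher, blue points lower and grey points not called over all 12 libraries, and the diagonal marks equal folds. Most points follow the diagonal, Hmgcs1 and Idi1 lie near 0 in set B, and Il10 and Dusp1 lie below the line.

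The 8 h response was also set against that of the WT-labelled libraries. In the test of the difference between both responses 0 of 12957 genes (0%) were called by edgeR, with 544 genes (4.20%) at an unadjusted p below 0.05, 4 calls by DESeq2 and 0 by limma-voom. The median half-width of an unadjusted 95% interval of that difference was 0.46 on the log2 scale, so smaller differences would mostly not be seen. Calls also needed adjustment over all genes, so larger differences could be missed as well. The lowest edgeR adjusted p was 0.281. Nos2 averaged 2681 ± 357 CPM at 8 h and 0.458 ± 0.779 CPM in controls of the WT label (SD, n = 6 each), and the KO-labelled minus WT-labelled difference in log2 fold was -0.10 ± 0.79 (adjusted p = 1). For Socs1 it was 0.03 ± 0.44, for Tnf -0.16 ± 0.25, for Nfkbia -0.20 ± 0.15 and for Cxcl10 -1.57 ± 0.47, each with an SE in the same unit and none called over all libraries.

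Within the library sets the picture was not the same. In set A 0 genes (0%) were called for the difference between both responses and in set B 2154 (16.6%), 1092 with a higher (8.42%) and 1062 with a lower log2 fold change in KO-labelled libraries (8.18%). The spread among replicates was not equal. Pairs of KO-labelled LPS 8 h or control libraries differed by a mean chi-square per gene of 4.13 to 32.6 in set A. In set B it was 2.10 to 4.75, so the numbers of calls cannot be compared directly. In set B the log2 fold change was lower in 48 of 49 interferon-stimulated genes (median difference -1.78, against 0.18 in set A), in 18 of 22 class I genes, in 16 of 33 sterol and fatty acid genes and in 11 of 20 chemokines. It was higher, that is less negative, in 21 of 46 mitosis and 21 of 40 replication genes.

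Levels of Irf7, from the list of interferon response factors, and of the interferon-stimulated gene Isg15 are given as examples, and levels were not compared between the labels over the whole list. Irf7 held 3628 to 3971 CPM at 8 h and 233 to 243 CPM in controls among KO-labelled libraries of set B, and 2394 to 2675 and 8.92 to 9.97 CPM among the WT-labelled libraries of that set. Isg15 held 2195 to 2465 and 50.1 to 61.6 CPM among KO-labelled, and 1825 to 2085 and 4.72 to 6.11 CPM among WT-labelled libraries of set B. For both genes the KO-labelled controls of set B stood above every other control of either label, and at 8 h the KO-labelled libraries of set B were the higher as well. In set A the controls of both labels overlapped, at 15.5 to 29.7 CPM of Irf7 under the KO label and 11.3 to 45.1 CPM under the WT label. Tnf differed at 8 h instead, with 1426 to 1465 CPM in the KO-labelled libraries of set B and 2629 to 2922 CPM in its WT-labelled libraries. The sets were found from these same counts and have 3 libraries a group, so calls within a set are no independent evidence, and whether set B differs from set A was not tested.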

How the data were processed

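Total RNA of mouse bone marrow-derived macrophages was sequenced in 36 libraries of 6 groups, per the labels. The deposited files hold raw counts per gene for 54232 Ensembl identifiers, made by the authors with HTSeq on mm10 per the submitters' processing notes; of the aligner, the annotation and strandedness nothing is stated in the sources used, so overlapping and antisense genes cannot be told apart. Symbols and coordinates come from GENCODE M21 on mm10 (54165 identifiers matched).

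The analysis of these counts used edgeR 4.0.16 (R 4.3.3): TMM scaling, filterByExpr on the 6 groups (12957 genes kept), glmQLFit over all 36 libraries and glmQLFTest, with Benjamini-Hochberg adjustment over all genes and an adjusted p below 0.05 called. Library totals ran from 9474629 to 14519420 counts in the 12 libraries compared, and no 2 replicates were close enough to be 1 library deposited again. Alternatives used DESeq2 1.42.0, limma-voom (limma 3.58.1), sva 3.50.0, other scalings and filters, the compared groups alone, each library set alone, and leaving out libraries.

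Gene lists and members were chosen with earlier results of these data known. Named genes were the 12 largest called changes in each direction with a mean log2 CPM of at least 2, up to 3 called members of each pathway list in each direction with the same minimum, a fixed set of NOS, NF-kB, SOCS and cytokine genes, and the 6 largest changes in each direction against 2 h; not all of them are described, some are not reported here, and any other gene given with values is said to have been named after its values were seen. Promoter windows are from RefSeq on GRCm38.p6, matched by symbol for 9762 of the 12957 genes, with the first listed window of a gene used.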

Additional observations from a re-analysis of the deposited data

Results flagged for a closer look

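Of the 12 libraries, single ones stood apart from the other 5 of their group for some of the genes described. A library is given here where its gap to its nearest neighbour, divided by the range of its group, is above Dixon's critical value for 6 libraries. Chance alone would exceed that value in about 1 of 20 groups. Many genes were screened in both groups, so many such gaps would arise by chance alone. KO-labelled LPS 8 h replicate 1 held Egr1 at 4.81 CPM (5.89 to 6.34 CPM in the other 5). KO-labelled LPS 8 h replicate 2 held Slc2a6 at 914 CPM (1358 to 1582 CPM in the other 5), Gpi1 at 304 CPM (217 to 235 CPM in the other 5) and Sod2 at 1119 CPM (1454 to 1554 CPM in the other 5). The same library held Fcgr4 at 429 CPM (558 to 598 CPM in the other 5), Fcgr2b at 278 CPM (464 to 554 CPM in the other 5) and Lrp1 at 722 CPM (432 to 504 CPM in the other 5). The same library held Gcnt1 at 3.92 CPM (1.66 to 2.43 CPM in the other 5) and Dusp6 at 12.9 CPM (6.96 to 8.74 CPM in the other 5). KO-labelled control replicate 1 held Fcgr4 at 83.7 CPM (34.8 to 52.9 CPM in the other 5), Pttg1 at 18.2 CPM (13.1 to 14.7 CPM in the other 5) and Zdhhc14 at 40.2 CPM (24.8 to 30.4 CPM in the other 5). The same library held Trib3 at 10.4 CPM (15.3 to 17.3 CPM in the other 5). KO-labelled control replicate 2 held Gpi1 at 483 CPM (356 to 366.9 CPM in the other 5), Kif23 at 48.4 CPM (73.7 to 83.7 CPM in the other 5) and Cenpf at 21.5 CPM (30.0 to 33.1 CPM in the other 5). The same library held Cdkn2c at 29.6 CPM (40.1 to 46.4 CPM in the other 5) and Cdc20 at 20.4 CPM (31.1 to 37.1 CPM in the other 5). KO-labelled control replicate 3 held Il12b at 0.670 CPM (0 to 0.246 CPM in the other 5), Nos2 at 2.48 CPM (0.0562 to 0.657 CPM in the other 5) and Adora2a at 0.670 CPM (0.0683 to 0.182 CPM in the other 5). KO-labelled control replicate 6 held Nfkb1 at 77.1 CPM (69.1 to 71.2 CPM in the other 5) and Mt1 at 185 CPM (153 to 164 CPM in the other 5). KO-labelled control replicate 2 also held Xcr1 at 0.903 CPM (0.0670 to 0.341 CPM in the other 5), and control replicate 5 held Dpp4 at 0.619 CPM (0.0682 to 0.242 CPM in the other 5). LPS 8 h replicate 2 and control replicate 2 had the most such genes. Leaving out either library in turn changed no call of the genes just listed.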

How the results depend on the processing

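The call of 9342 genes at 8 h against control kept within 1.5 times its value under every alternative except a minimum log2 fold change of 1, which left 5130 genes, 2475 higher and 2655 lower. Library totals alone gave 2164 higher and 8934 lower genes. Leaving out each library gave 9181 to 9254 genes, 4455 to 4495 higher and 4724 to 4785 lower. Against 2 h the same alternatives gave 4169 genes at the minimum fold (1924 higher, 2245 lower), 2170 higher and 7755 lower with library totals alone, and 8250 to 8387 with single libraries left out. The difference from the WT-labelled response had 0 calls, 4 with DESeq2 (2 higher, 2 lower), 3 with the library set as a term (2 higher, 1 lower), 12 with surrogate variables (4 higher, 8 lower), 2154 within set B (1092 higher, 1062 lower), and 0 to 1 with single KO-labelled libraries left out (1 higher without LPS 8 h replicate 2, 1 lower without control replicate 6). The cause of these changes was not tested.

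Of 193 genes followed, 4590 of 4627 values kept their direction and call. Directions reversed for Rfc3 (log2 fold change -0.046) and Rps24 (-0.15) with library totals alone, for Hmgcs1 (-0.07) and Idi1 (-0.12) within set B, and for the uncalled Tlr4 (0.10) and Tgfb1 (0.009) within set A. With surrogate variables the Cx3cr1 log2 fold change moved to -3.41, H2-Ab1 to 1.39, Cd74 to 1.01 and Egr1 to -1.23. Median signs of 18 lists changed with library totals alone and of 10 under another setting. No paired analysis was possible because the replicate numbers are accession order and the labels tie no library to an animal, culture or day. Counts of under about 10 in all controls, as for Il6 and Mir155hg, limit those fold changes.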
